A study of Mus musculus with 4 samples.

Results

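The spliceosome and its RNA-binding partners were followed as the 78 rows, of the 18436 in the deposited expression table, whose gene symbols begin with Snrp, Sf3a or Sf3b, Lsm, Prpf, Srsf or Hnrnp (with a number after the Sf3, Lsm, Prpf and Srsf stems). The rule uses names only and no measured value. It takes in 20 Hnrnp, 13 Lsm, 13 Prpf, 12 Snrp, 11 Srsf and 9 Sf3 genes, and leaves out splicing proteins with other names, which are described after the members. RNA was sequenced from sorted Lgr5-GFP high cells of the intestine, the stem cell fraction of the crypt, of 2 Lgr5-CREPTWT and 2 Lgr5-CREPTKO mice on a C57BL/6 background. All of the mice carry Lgr5-EGFP-IRES-creERT2, in which the Lgr5 promoter drives GFP together with a Cre recombinase that tamoxifen switches on, and the Lgr5-CREPTKO mice carry in addition CREPT fl/fl alleles. Both genotypes were given 1 mg of tamoxifen daily for 5 days, with the sort on day 7. Mice were 6 to 8 weeks old and of both sexes, as stated for all animals together and not for each genotype. By the sex-linked RNA given below, the mice compared here were all female. CREPT, encoded by Rprd1b, binds the carboxy-terminal domain of RNA polymerase II. Tamoxifen starts the deletion in cells in which the Lgr5 promoter drives the recombinase.

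Introns are removed by the spliceosome, which assembles on each intron from small nuclear ribonucleoproteins (snRNPs), particles of a short RNA and a set of proteins. Most of these particles are built around a ring of Sm proteins, the U6 particle around a related ring of LSm proteins, and the SF3a and SF3b complexes of the U2 particle hold the branch point. The U4/U6 and U5 particles join as the tri-snRNP, and SR proteins and hnRNP proteins bind exons and introns and help to choose the splice sites.

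Values are FPKM, fragments counted per length of transcript and per size of library, and genotypes were compared with limma's moderated test on log2(FPKM + 0.5) over the 12621 rows with a mean of at least 0.5 FPKM, with p-values adjusted over all of these rows by the Benjamini-Hochberg method. Fold changes are Lgr5-CREPTKO over Lgr5-CREPTWT on that log2 scale, which understates changes at low levels. With 2 mice against 2, an exact two-sided permutation test cannot give a p below 0.333, so each adjusted p depends on a variance estimate that limma borrows from the other rows. The rows summed to 495758 and 499327 FPKM in the Lgr5-CREPTWT mice and to 468830 and 473662 FPKM in the Lgr5-CREPTKO mice. Depth was judged from the steps of 1 read in microRNA rows, and relative to Lgr5-CREPTWT mouse 1 it was 1.02 in Lgr5-CREPTWT mouse 2 and 1.01 and 0.969 in the Lgr5-CREPTKO mice. Rprd1b was 17.7 and 18.1 FPKM in the Lgr5-CREPTWT mice against 6.65 and 7.36 FPKM in the Lgr5-CREPTKO mice, and it fell by 1.29 on the log2 scale (adjusted p = 0.028). Stem cell markers were present, with Lgr5 at 37.7 to 60.1 FPKM and Olfm4 at 4932 to 5351 FPKM. Xist was 100.47 and 93.67 FPKM in the Lgr5-CREPTWT mice and 169.17 and 125.28 FPKM in the Lgr5-CREPTKO mice. Ddx3y, on the Y chromosome, was 0.01 to 0.02 FPKM in all of them, so each mouse had the pattern of a female.

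All members but Srsf12 were expressed in every mouse. Their values added up to 7434 and 7404 FPKM in the Lgr5-CREPTWT mice and 6872 and 6766 FPKM in the Lgr5-CREPTKO mice. As a share of all FPKM this was 1.499% and 1.48% against 1.47% and 1.43%. Both Lgr5-CREPTKO mice lay below both Lgr5-CREPTWT mice by either measure, by a narrower margin on the share. Hnrnpa1 stood highest, with a mean over the 4 mice of 471 FPKM, and Lsm11, a component of the histone pre-mRNA processing particle, lowest of those tested, at 4.22 FPKM. Srsf12 was at 0.04, 0, 0.04 and 0.04 FPKM and was not tested, which leaves 77 members.

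Of these 77 members, 2 fell in Lgr5-CREPTKO cells at an adjusted p below 0.05, the Prpf gene Prpf31 and the Lsm gene Lsm5, where 2.67% of all rows tested fell by this rule. None rose by limma's test (0 members, with 1 member higher at an unadjusted p below 0.05), where 0.412% of all rows rose. In 35 members both Lgr5-CREPTKO values were below both Lgr5-CREPTWT values, and in 10 both were above, where 31.0% and 25.6% of all rows tested did so. After scaling each mouse to the same FPKM total (TPM), these counts were 23 and 19, where the shares of all rows were 23.3% and 36.1%. The median log2 fold change of the members was -0.11, beside -0.01 for all rows tested, and after the same scaling it was -0.03 beside 0.06. Before adjustment, 17 members were lower at p below 0.05 and 1 was higher, beside 15.2% and 9.27% of all rows. The members' count at the adjusted threshold was thus at the level of all rows, and their genotypes were separated downward more often, and upward less often, than over all rows in both scalings, as a description without a test.

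**Figure D1:**
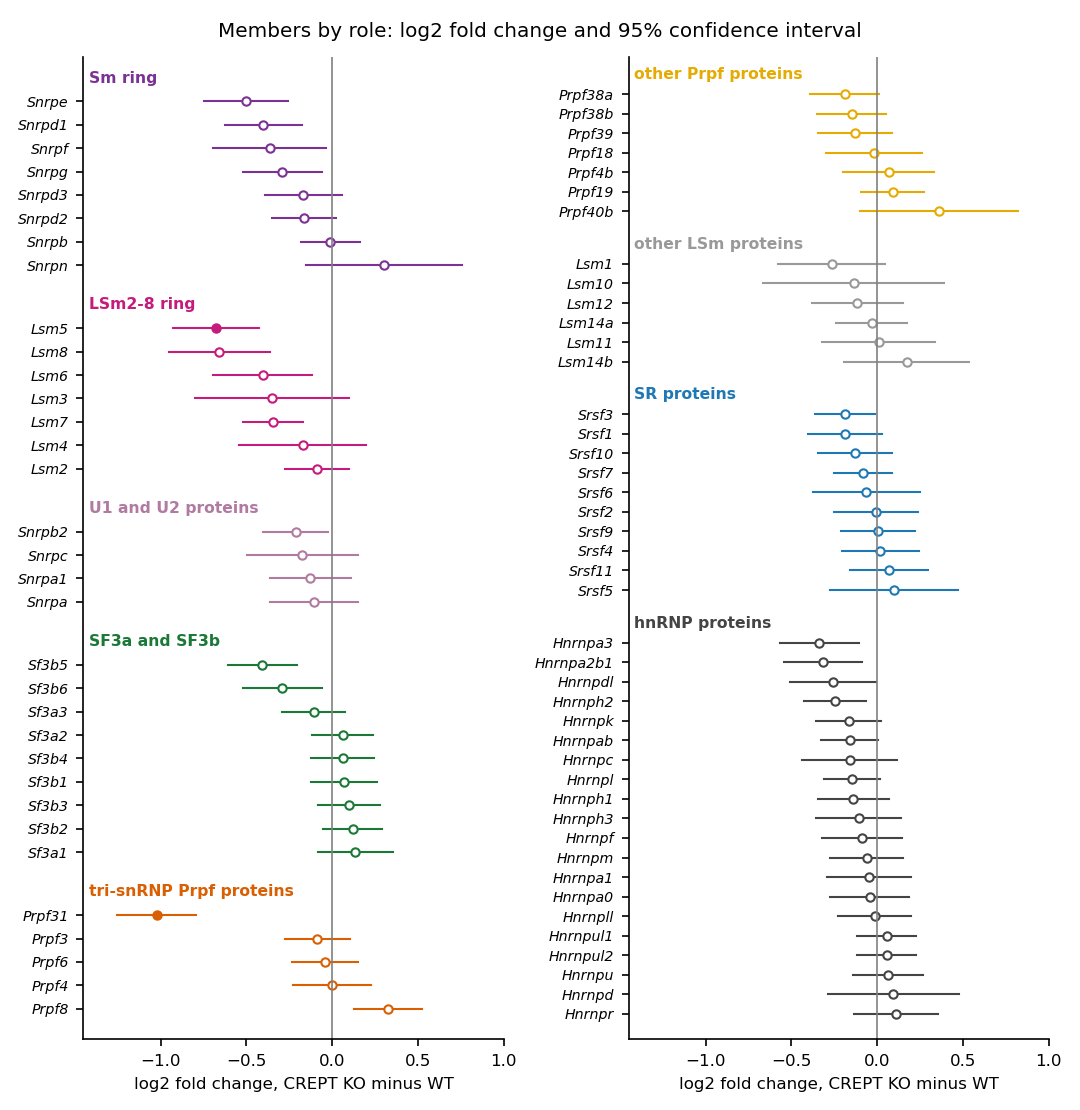
Each point is the log2 fold change of 1 member (Lgr5-CREPTKO minus Lgr5-CREPTWT) and each line its 95% confidence interval from limma, grouped by role, with filled points at an adjusted p below 0.05 and 1 member not drawn. Prpf31 at -1.02 and Lsm5 at -0.68 are the filled points, and all 7 proteins of the LSm2-8 ring lie to the left of 0.

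Prpf31 showed the largest difference of all members. The protein binds the U4 RNA and holds the U4/U6 and U5 particles together in the tri-snRNP. Prpf31 was 24.8 and 22.6 FPKM in the Lgr5-CREPTWT mice and 11.7 and 11.1 FPKM in the Lgr5-CREPTKO mice. The mice of the genotypes were thus far apart, and the Lgr5-CREPTKO level, 11.4 ± 0.431 FPKM (SD, n = 2), was 48.1% of the Lgr5-CREPTWT level, 23.7 ± 1.53 FPKM (SD, n = 2). It fell by 1.02 on the log2 scale (standard error 0.090, 95% confidence interval -1.25 to -0.79, adjusted p = 0.0298). The gene lies on the plus strand at chr7:3629985-3642485 of GRCm38.p6. Its first base is 56 bases from that of Tfpt, which is read from the other strand and encodes a chromatin remodelling subunit. Tfpt was 13.7 and 14.1 FPKM in the Lgr5-CREPTWT mice and 10.3 and 12.9 FPKM in the Lgr5-CREPTKO mice, or -0.26 on the log2 scale (adjusted p = 0.292). Cnot3, the next gene downstream, had a log2 fold change of -0.23 (adjusted p = 0.298), while Tmc4, 23269 bases beyond the end of Prpf31, fell by 0.47 (adjusted p = 0.0496). The other neighbours tested, Ndufa3, Leng1 and Mboat7, were at -0.46 (adjusted p = 0.0907), -0.37 (adjusted p = 0.177) and 0.01 (adjusted p = 0.957), so that Tmc4 was the only one of 6 to pass.

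The other 4 Prpf genes of the tri-snRNP did not pass the test. Prpf3 and Prpf4, which encode U4/U6 proteins that bind each other, had log2 fold changes of -0.09 and -0.00. Prpf6, the bridge between U5 and U4/U6, was 27.6 and 28.8 FPKM in the Lgr5-CREPTWT mice and 26.9 and 27.9 FPKM in the Lgr5-CREPTKO mice, with overlapping genotypes. Prpf8, which forms the centre of the catalytic core, was 65.5 and 63.9 FPKM in the Lgr5-CREPTWT mice and 84.97 and 77.5 FPKM in the Lgr5-CREPTKO mice. Both Lgr5-CREPTKO values were above both Lgr5-CREPTWT values, with a log2 fold change of 0.32 (95% confidence interval 0.13 to 0.52, adjusted p = 0.0911). Its protein has 2335 residues. Of all rows of over 1000 residues 61.3% were higher without overlap, with a median log2 fold change of 0.18. With trends with transcript length and GC content taken out of each mouse, Prpf8 was at 0.18 (adjusted p = 0.243 by limma's test). Summed over the 5 genes, the level was 151 and 148 FPKM in Lgr5-CREPTWT mice and 155 and 148 FPKM in Lgr5-CREPTKO mice, with no separation of the genotypes. As a share of all FPKM the sum was 0.0304% and 0.0297% against 0.0331% and 0.0312%, with both Lgr5-CREPTKO mice above both Lgr5-CREPTWT mice.

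The ring that marks the U6 particle gave the second gene to pass. Lsm5 was 34.8 and 33.0 FPKM in the Lgr5-CREPTWT mice and 19.5 and 22.6 FPKM in the Lgr5-CREPTKO mice. The genotypes did not overlap, and Lsm5 fell by 0.68 on the log2 scale (standard error 0.098, 95% confidence interval -0.93 to -0.42, adjusted p = 0.0438). The gene lies on the minus strand at chr6:56701063-56704699. Under the equal-total scaling its adjusted p was 0.0515. Lsm8, the subunit found in the nuclear ring and not in the cytoplasmic one, was 39.5 and 39.8 FPKM in the Lgr5-CREPTWT mice and 27.6 and 22.5 FPKM in the Lgr5-CREPTKO mice. Its log2 fold change was -0.66 (95% confidence interval -0.95 to -0.36, adjusted p = 0.0585), just outside the threshold.

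All 7 genes of the LSm2-8 ring had a negative log2 fold change, from -0.68 to -0.09 with a median of -0.35, and in 6 of them the genotypes did not overlap. Over all rows tested 31.0% were lower without overlap, and among rows of up to 100 and of 101 to 200 residues, the sizes of small ring proteins, 60.5% and 57.1% were. Lsm6 was at -0.40 (adjusted p = 0.12) and Lsm7 at -0.34 (adjusted p = 0.0665). Lsm3 was 63.9 and 62.1 FPKM in the Lgr5-CREPTWT mice but 58.9 and 41.2 FPKM in the Lgr5-CREPTKO mice, so most of its difference came from 1 mouse. Lsm4, the member of the ring with the highest level, overlapped between the genotypes. The summed level of the ring was 386 and 402 FPKM against 318 and 313 FPKM. The cytoplasmic ring exchanges Lsm8 for Lsm1, which starts mRNA decay, and Lsm1 was 7.14 and 8.03 FPKM against 5.84 and 6.61 FPKM (log2 fold change -0.27, adjusted p = 0.255). Lsm1 was 0.18 and 0.20 of the level of Lsm8 in the Lgr5-CREPTWT mice and 0.21 and 0.29 of it in the Lgr5-CREPTKO mice. Lsm10 and Lsm11, of histone mRNA processing, Lsm14a and Lsm14b, of translational control, and Lsm12 all overlapped between the genotypes.

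Promoter windows of Prpf31 and Lsm5, the members that fell, are shown beside those of Lsm8, the next lower gene of the same ring, and Prpf8, the member above 0 with the lowest p, so that their sequence can be compared. Each runs 5′ to 3′ along the gene's own strand from 250 bases before the RefSeq start to 50 bases from it onward (GRCm38.p6), and the windows span chr7:3629735-3630034 (plus strand), chr6:56704650-56704949 (minus strand), chr6:18848385-18848684 (plus strand) and chr11:75486527-75486826 (plus strand) in the order printed. Capitals mark matches to the motifs named in the following paragraph.
Prpf31: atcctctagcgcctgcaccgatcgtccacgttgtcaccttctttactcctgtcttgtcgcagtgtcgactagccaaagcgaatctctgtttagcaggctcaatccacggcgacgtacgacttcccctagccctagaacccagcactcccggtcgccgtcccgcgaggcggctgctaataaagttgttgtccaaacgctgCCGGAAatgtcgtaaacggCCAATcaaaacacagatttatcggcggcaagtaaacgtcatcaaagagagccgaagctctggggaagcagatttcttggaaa
Lsm5: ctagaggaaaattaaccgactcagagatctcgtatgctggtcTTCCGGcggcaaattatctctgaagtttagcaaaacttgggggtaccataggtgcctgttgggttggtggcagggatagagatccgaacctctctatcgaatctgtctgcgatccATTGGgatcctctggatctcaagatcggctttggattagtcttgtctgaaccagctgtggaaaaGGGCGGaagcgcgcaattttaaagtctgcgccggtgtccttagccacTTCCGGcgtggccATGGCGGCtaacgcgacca
Lsm8: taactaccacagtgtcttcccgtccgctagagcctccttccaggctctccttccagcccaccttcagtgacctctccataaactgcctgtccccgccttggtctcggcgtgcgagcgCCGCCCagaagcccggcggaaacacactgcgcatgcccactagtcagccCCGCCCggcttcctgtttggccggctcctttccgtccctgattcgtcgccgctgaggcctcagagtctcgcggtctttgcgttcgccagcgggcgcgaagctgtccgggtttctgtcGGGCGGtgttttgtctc
Prpf8: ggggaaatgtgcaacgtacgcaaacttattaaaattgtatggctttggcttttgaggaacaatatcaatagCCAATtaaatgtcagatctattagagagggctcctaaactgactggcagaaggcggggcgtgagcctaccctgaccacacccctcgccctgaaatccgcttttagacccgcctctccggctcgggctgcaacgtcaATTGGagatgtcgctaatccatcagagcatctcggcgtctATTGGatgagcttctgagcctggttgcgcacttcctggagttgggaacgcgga

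Promoter windows were found for 67 of the 78 members by RefSeq gene number, and 7 motifs were searched in them on both strands. No match in the windows shown overlapped another. Prpf31 held the core of ETS factor sites (CCGGAA) 51 bases before the start and a CCAAT box (CCAAT) 32 bases before it. Lsm5 held the ETS core at 2 places, 208 bases before the start and 18 bases beyond it. It held 1 match each of the CCAAT box, 93 bases before the start, and the GC box (GGGCGG), 29 bases before it. Its 1 match of the YY1 type of site (ATGGCGGC) was 31 bases beyond the start, within the gene. Lsm8 held the GC box at 3 places, 133 and 84 bases before the start and 33 bases beyond it. Prpf8 held the CCAAT box at 3 places, which began 179, 43 and 3 bases before the start, and the last ran across it. The ETS core was in 44.8% of the members' windows, beside 15.2% of the 27025 windows of all genes and 29.0% of the 9498 windows of rows tested. The GC box was in 70.1% of the members' windows (35.9% of all, 64.0% of rows tested) and the CCAAT box in 49.3% (37.9% and 39.3%). The YY1 type of site was in 7.46% (2.38% and 5.23%). Of the motifs that none of the windows shown held, the TATA box (TATAAA) was in 8.96% (14.2% and 7.2%), the E-box (CACGTG) in 11.9% (7.24% and 10.4%) and the cyclic AMP response element (TGACGTCA) in 2.99% (1.88% and 3.37%). The median GC content was 60% in the members' windows, 52.7% in all windows and 60.7% in those of rows tested. These are letter matches and not measured binding.

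The Sm ring, which wraps the RNA of the U1, U2, U4 and U5 particles, held the highest levels among the core proteins. Its 8 genes summed to 1165 and 1237 FPKM in the Lgr5-CREPTWT mice and 1057 and 979.7 FPKM in the Lgr5-CREPTKO mice. In 6 of the 8 both Lgr5-CREPTKO mice were below both Lgr5-CREPTWT mice, and none passed at an adjusted p below 0.05 by limma's test (0 of 8, with 4 at an unadjusted p below 0.05). Of all rows tested 31.0% were lower without overlap, and of rows of up to 100 and of 101 to 200 residues 60.5% and 57.1%. At an unadjusted p below 0.05, 15.2% of all rows tested were lower by limma's test. Snrpe was 183 and 193 FPKM against 143 and 123 FPKM, or -0.50 on the log2 scale (95% confidence interval -0.75 to -0.26, adjusted p = 0.0642). Snrpd1 was at -0.40 (adjusted p = 0.0779), Snrpf at -0.36 (0.172) and Snrpg at -0.29 (0.138), all without overlap of the genotypes. Snrpd2 and Snrpd3 had smaller values, -0.16 and -0.17. Snrpb, by contrast, was 188 and 197 FPKM against 191 and 191 FPKM, a log2 fold change of -0.01 (95% confidence interval -0.18 to 0.16).

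Snrpn, the imprinted copy of Snrpb that is used mainly in neurons, was the exception in direction within the ring. It was 9.48 and 9.89 FPKM in the Lgr5-CREPTWT mice and 10.1 and 14.4 FPKM in the Lgr5-CREPTKO mice, so that 1 mouse carried most of the difference (log2 fold change 0.30, adjusted p = 0.358). Snrpb stood 19.86 and 19.96 times above Snrpn in the Lgr5-CREPTWT mice and 18.9 and 13.3 times above it in the Lgr5-CREPTKO mice. The coding sequences of this pair are close, and the split of reads between them depends on the authors' estimation. Of the U1 and U2 proteins, Snrpb2, a U2 protein, was 39.2 and 41.9 FPKM against 35.1 and 34.6 FPKM (log2 fold change -0.21, adjusted p = 0.171). Its paralog Snrpa, in U1, was 77.8 and 91.6 FPKM against 80.0 and 76.8 FPKM and overlapped between the genotypes, as did Snrpc. Snrpa1, which pairs with Snrpb2 in U2, was 42.0 and 36.9 FPKM against 35.3 and 36.8 FPKM, so that the genotypes nearly touched.

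**Figure D2:**
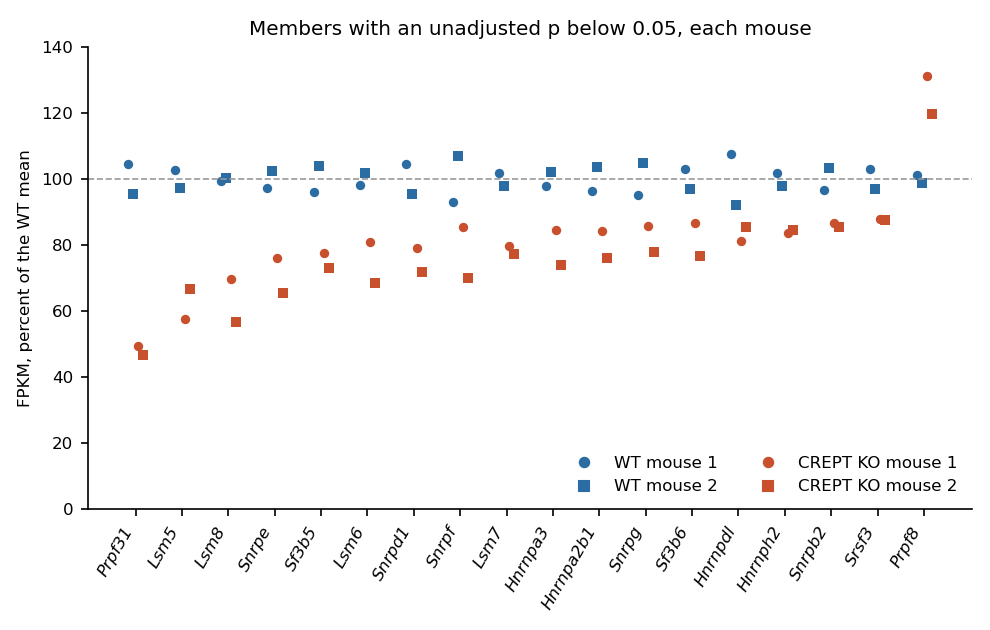
FPKM of each mouse as a percentage of the mean of the Lgr5-CREPTWT mice (vertical axis, from 0) for the 18 members with an unadjusted p below 0.05, ordered by log2 fold change, with circles for mouse 1 and squares for mouse 2 of each genotype. In Prpf31 both Lgr5-CREPTKO mice lie just under 50% (mean 48.1%), and Prpf8 is the only member shown above 100% in Lgr5-CREPTKO mice.

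The SF3a and SF3b complexes, which hold the U2 particle at the branch point, differed in direction by subunit. In 3 of the 9 genes both Lgr5-CREPTKO values were below both Lgr5-CREPTWT values, and in 4 both were above. Over all rows tested 31.0% and 25.6% did so. Sf3b5 and Sf3b6, the small SF3b subunits, were lower in both Lgr5-CREPTKO mice. So was Sf3a3, of 501 residues (log2 fold change -0.11, adjusted p = 0.406). Of rows of up to 100 and of 101 to 200 residues, the sizes of Sf3b5 and Sf3b6, 60.5% and 57.1% were lower without overlap. Sf3b5 was 71.4 and 77.3 FPKM against 57.6 and 54.3 FPKM, or -0.41 on the log2 scale (95% confidence interval -0.61 to -0.20, adjusted p = 0.0659), and Sf3b6 had one of -0.29 (adjusted p = 0.141). Sf3b1, the large scaffold that is often mutated in leukaemia, was 77.3 and 72.8 FPKM against 81.3 and 76.3 FPKM and overlapped between the genotypes. Sf3a2, with a log2 fold change of 0.06, overlapped as well. In Sf3a1, Sf3b2, Sf3b3 and Sf3b4 both Lgr5-CREPTKO values were above both Lgr5-CREPTWT values, with log2 fold changes of 0.06 to 0.14 and confidence intervals that included 0. None of the 9 genes passed at an adjusted p below 0.05 by limma's test (0 of 9, with 2 lower at an unadjusted p below 0.05, beside 15.2% of all rows). The summed level, 569.8 and 572 FPKM against 576 and 559 FPKM, overlapped. As a share of all FPKM the sum was 0.1149% and 0.1145% against 0.1228% and 0.118%, with both Lgr5-CREPTKO mice above both Lgr5-CREPTWT mice.

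The 8 other Prpf genes covered a range of -0.19 to 0.36 in log2 fold change around a median of 0.00. Prpf19, the ubiquitin ligase that gives the Prp19 complex its name, was 40.3 and 38.2 FPKM against 42.3 and 41.3 FPKM. Prpf38a and Prpf38b, of the complex that precedes activation, had log2 fold changes of -0.19 and -0.15. Prpf40b, which joins the U1 particle to the branch point side, was 6.38 and 5.06 FPKM against 6.51 and 8.50 FPKM, the largest positive log2 fold change among the members (0.36, adjusted p = 0.29). In each genotype the mice differed from each other by an amount close to the difference between the genotypes.

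The SR proteins, which bind exonic enhancers and recruit U1 and U2 to neighbouring splice sites, differed little. Their summed level was 1193 and 1088 FPKM in Lgr5-CREPTWT mice and 1082 and 1142 FPKM in Lgr5-CREPTKO mice, with overlap. Srsf5 was the highest, at 262 and 200 FPKM against 233 and 257 FPKM, and its Lgr5-CREPTWT values bracketed both Lgr5-CREPTKO values. Srsf3, which acts in splicing and in export of mRNA, was 164 and 155 FPKM against 140 and 139 FPKM (log2 fold change -0.19, adjusted p = 0.182), the largest difference of the family. Srsf1, the founding SR protein, was 75.2 and 81.2 FPKM against 71.9 and 65.4 FPKM (-0.19, adjusted p = 0.254), and its relative Srsf9 was 28.2 and 31.4 FPKM against 29.7 and 30.0 FPKM. No SR gene passed at an adjusted p below 0.05 by limma's test (0 of 10, with 1 lower at an unadjusted p below 0.05, beside 15.2% of all rows). The ratio of Srsf3 to Srsf7 was 1.17 and 1.14 in Lgr5-CREPTWT mice and 1.09 and 1.05 in Lgr5-CREPTKO mice. The 95% confidence intervals of the 10 genes all lay between -0.40 and 0.47 on the log2 scale.

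The hnRNP genes gave the largest share of the members' FPKM, with 3412 and 3376 FPKM in Lgr5-CREPTWT mice and 3131 and 3099.9 FPKM in Lgr5-CREPTKO mice. Hnrnpa1, a repressor of exon inclusion, was the most abundant, at 482 and 475 FPKM against 429 and 498 FPKM, with overlapping genotypes. A pair of its relatives was lower in both Lgr5-CREPTKO mice. Hnrnpa2b1, an RNA carrier and splicing factor, was 434 and 468 FPKM against 381 and 344 FPKM (log2 fold change -0.32, adjusted p = 0.118), and Hnrnpa3 was 149.9 and 157 FPKM against 129 and 113 FPKM (-0.34, adjusted p = 0.109). Hnrnpa1 was 3.21 and 3.03 times as high as Hnrnpa3 in Lgr5-CREPTWT mice and 3.31 and 4.40 times in Lgr5-CREPTKO mice. Hnrnpdl was at -0.26 (adjusted p = 0.197) and Hnrnph2 at -0.25 (adjusted p = 0.122) on that scale. Hnrnpd, the paralog of Hnrnpdl, was 32.04 and 25.4 FPKM against 27.9 and 33.3 FPKM.

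Other abundant hnRNP genes differed by less. Hnrnpf, Hnrnpk, Hnrnpl and Hnrnpm had log2 fold changes of -0.09, -0.17, -0.14 and -0.06, and Hnrnpu, a nuclear scaffold protein, one of 0.06. Hnrnpl stood 5.89 and 5.39 times above its paralog Hnrnpll in Lgr5-CREPTWT mice and 5.13 and 5.17 times above it in Lgr5-CREPTKO mice. The ratio of Hnrnpul1 to Hnrnpul2 was 1.39 and 1.41 against 1.40 and 1.39. No hnRNP gene passed at an adjusted p below 0.05 by limma's test (0 of 20, with 4 at an unadjusted p below 0.05, all lower). Of all rows tested 2.67% fell at the adjusted threshold, and 15.2% were lower at the unadjusted one. The 95% confidence intervals ran from -0.57 to 0.48 over the 20 genes.

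**Figure D3:**
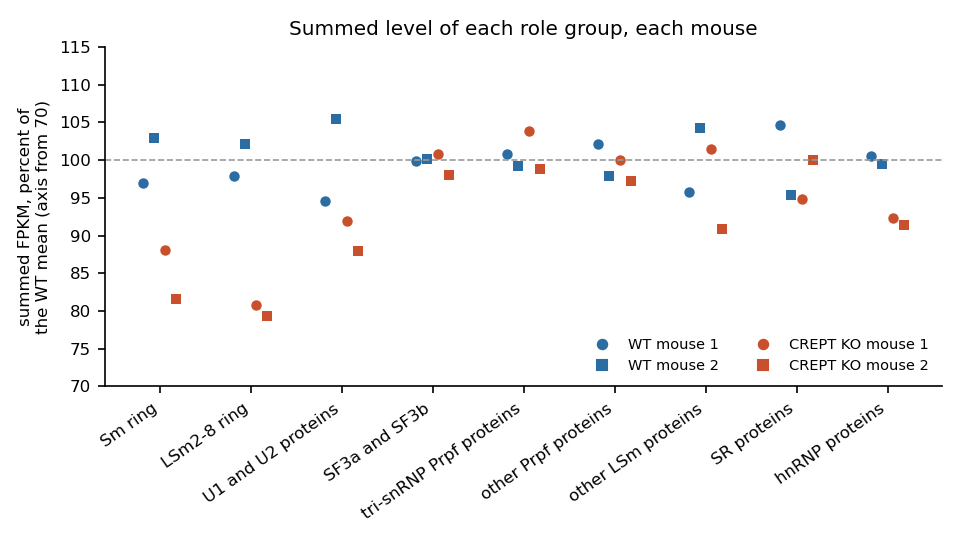
Summed FPKM of each role group in each mouse, as a percentage of the mean of the Lgr5-CREPTWT mice (the vertical axis starts at 70). The Sm ring, the LSm2-8 ring, the U1 and U2 proteins and the hnRNP proteins lie lower in both Lgr5-CREPTKO mice, with the LSm2-8 ring at 318 and 313 FPKM beside 386 and 402 FPKM, and the other groups overlap. As a share of all FPKM, which is not drawn, the U1 and U2 proteins overlap (0.0439% and 0.0485% against 0.0451% and 0.0427%), and the Sm ring, the LSm2-8 ring and the hnRNP proteins stay lower in both Lgr5-CREPTKO mice.

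The members' differences ran with protein length, a property that the name rule does not use. Across the 77 members tested, Spearman's rho between the number of residues and the log2 fold change was 0.66, and across the 11700 rows tested that have a protein it was 0.42. Genes are not independent replicates, and all of these points share the same 4 libraries. The 8 members of up to 100 residues had a median log2 fold change of -0.41, and in all 8 the Lgr5-CREPTKO mice were below the Lgr5-CREPTWT mice. Among all 291 rows of that size the median was -0.25 and 60.5% were lower without overlap. The 13 members of 101 to 200 residues had a median of -0.175, beside -0.179 for all 1404 rows of that size. The 33 members of 201 to 500 residues had a median of -0.08 beside -0.06, the 19 of 501 to 1000 residues one of 0.02 beside 0.04, and the 4 of over 1000 residues one of 0.08 beside 0.18. The gap between the members and all rows of their size was widest in the shortest class.

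Within a genotype the relation was weaker, and its sign varied. The difference of Lgr5-CREPTWT mouse 2 from mouse 1 had a rho of -0.33 with length over the members and -0.15 over all rows, and that of Lgr5-CREPTKO mouse 2 from mouse 1 one of 0.23 and -0.06. When smooth trends with transcript length and GC content were taken out of each mouse, an alternative chosen after seeing the data, rho was 0.28 over the members and 0.15 over all rows. The members' median was then -0.01 beside 0.04 for all rows, and 17 members were lower and 15 higher without overlap, where 22.9% and 31.6% of all rows were. The shortest members had a median of -0.25 beside -0.06 for all rows of their size. Prpf31, with 499 residues, then had a log2 fold change of -0.98 (adjusted p = 0.0416), while Lsm5, with 91 residues, had one of -0.30 (adjusted p = 0.113) and Snrpe one of -0.19 (adjusted p = 0.485). The part that RNA quality or library preparation has in the relation with length was not tested.

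**Figure D4:**
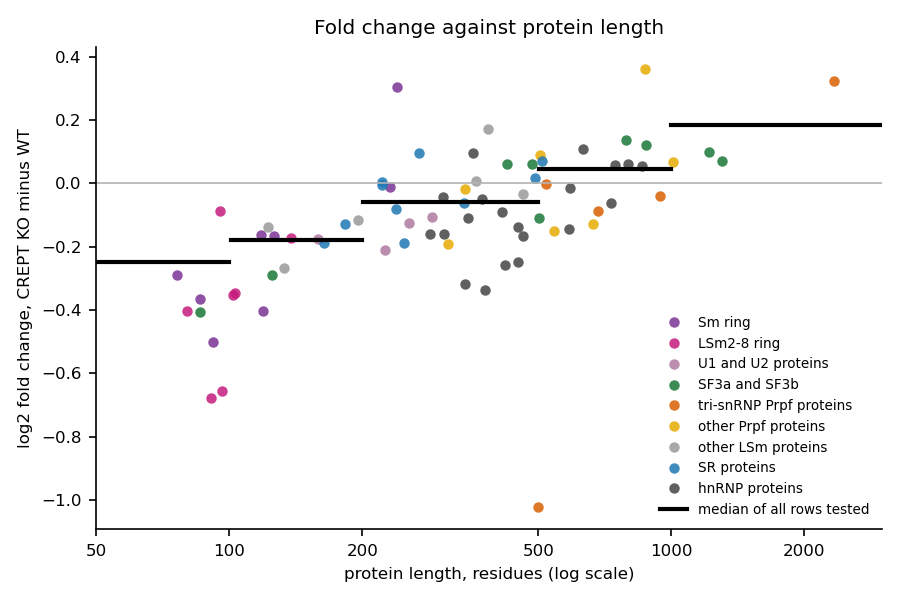
Log2 fold change of each member tested, with 1 not drawn (vertical axis) against the length of its protein in residues (horizontal axis, log scale), coloured by role, with black bars at the median of all rows tested in each length class, from -0.25 at up to 100 residues to 0.18 at over 1000. Prpf31 lies far below the bar of its class, and most of the Sm and LSm ring proteins lie at the left.

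Splicing genes with other names were taken from 7 lists. Of the 141 tested among 149 listed, 4 fell at an adjusted p below 0.05 and none rose by limma's test (0, with 9 at an unadjusted p below 0.05 and higher), where 2.67% and 0.412% of all rows tested did so. The median log2 fold change was -0.02. Of the genes that fell, 3 encode snRNP proteins, among 26 tested. Cd2bp2, a U5 protein that is not retained in the tri-snRNP, was 22.3 and 24.4 FPKM against 11.7 and 13.8 FPKM and fell by 0.85 on the log2 scale (adjusted p = 0.0376). Zmat2, a zinc finger protein of the spliceosome before activation, fell by 0.66 (adjusted p = 0.041), from 30.7 and 34.9 FPKM to 20.4 and 20.7 FPKM. Ppih, the cyclophilin bound to the Prpf3 and Prpf4 pair in U4/U6, was 44.1 and 48.9 FPKM against 32.3 and 30.4 FPKM and fell by 0.56 (adjusted p = 0.0473, and 0.0588 under the equal-total scaling). Genotypes did not overlap in any of these, which were named because they passed on the same values. Of all rows tested 31.0% were lower without overlap. Zmat2 and Ppih have 199 and 177 residues, and of rows of 101 to 200 residues 57.1% were lower without overlap. Cd2bp2 has 342 residues, and of rows of 201 to 500 residues 36.3% were. In the same list Snrnp200 and Eftud2, the U5 helicase and GTPase that work with Prpf8, were at 0.21 (adjusted p = 0.183) and 0.19 (adjusted p = 0.17), with both Lgr5-CREPTKO mice above both Lgr5-CREPTWT mice. Their proteins have 2136 and 972 residues. Of all rows of over 1000 and of 501 to 1000 residues 61.3% and 33.1% were higher without overlap.

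The fourth gene that fell was Esrp2, an epithelial splicing regulator, among 40 other splicing regulators tested. Esrp2 was 29.9 and 28.7 FPKM in the Lgr5-CREPTWT mice and 12.4 and 13.1 FPKM in the Lgr5-CREPTKO mice, and it fell by 1.17 on the log2 scale (adjusted p = 0.028). Its paralog Esrp1 was 61.9 and 65.7 FPKM against 61.7 and 59.8 FPKM, or -0.07 on the log2 scale (adjusted p = 0.603). Esrp1 was thus the higher of the pair in every mouse. Srrm2, a large scaffold of nuclear speckles, was 117 and 104 FPKM against 146 and 151 FPKM (log2 fold change 0.42, adjusted p = 0.0701). Its protein has 2703 residues. Of all rows of over 1000 residues 61.3% were higher without overlap, with a median log2 fold change of 0.18.

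In the other 5 lists no gene passed. Among 12 exon junction complex genes, 5 were lower at an unadjusted p below 0.05, where 15.2% of all rows tested were. In 8 of the 12 the genotypes were lower without overlap, beside 31.0% of all rows tested. Of rows of 101 to 200 residues, the size of Magoh (146) and Sap18 (172), 57.1% were. Magoh was 90.3 and 87.0 FPKM against 68.2 and 64.3 FPKM (log2 fold change -0.42, adjusted p = 0.0563) and Sap18 had one of -0.51 (adjusted p = 0.112), while Srrm1 had one of 0.16. Among 10 genes of 3′ splice site recognition, Uhmk1, a kinase of splicing factors, was 8.54 and 9.20 FPKM against 12.5 and 12.8 FPKM (0.49, adjusted p = 0.0638), and U2af1l4 had -0.25. The 28 Prp19 complex and helicase genes ran from -0.25 (Cwc15) to 0.21 (Rbm22), and the 7 SR protein kinases and importer genes from -0.25 (Clk1) to 0.25 (Srpk2). Of the 18 genes of snRNP assembly and import, Gemin5, which recognises the RNA of the particles, had a log2 fold change of 0.47 (adjusted p = 0.0887) and Gemin8 one of -0.21. The Gemin5 protein has 1502 residues, and of rows of over 1000 residues 61.3% were higher without overlap.

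**Figure D5:**
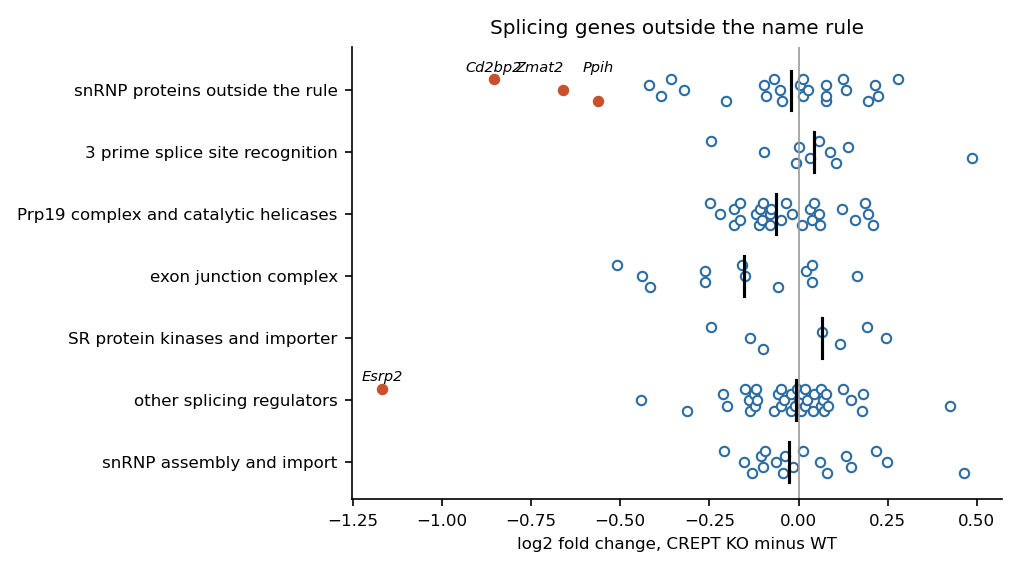
Log2 fold change (horizontal axis) of each gene of the 7 lists of splicing genes outside the name rule, with a black line at each list's median and filled, named points at an adjusted p below 0.05. Esrp2 at -1.17, Cd2bp2 at -0.85, Zmat2 at -0.66 and Ppih at -0.56 are the filled points, and the list medians lie between -0.15 and 0.07.

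Levels of some cell type markers in the sorted fraction differed between the genotypes, and in bulk RNA fewer cells of a type and less RNA per cell cannot be told apart. Enteroendocrine markers were lower without overlap in 9 of 10 genes, with summed levels of 220 and 317 FPKM against 72.8 and 82.6 FPKM and 5 genes that fell at an adjusted p below 0.05, and goblet cell markers in 7 of 8 genes, with 1473 and 2457 FPKM against 809 and 941 FPKM. Tuft cell markers were lower without overlap in 5 of 6 genes tested, with summed levels of 21.7 and 44.8 FPKM against 19.2 and 7.6 FPKM. None passed at an adjusted p below 0.05 by limma's test (0 of 6, with 3 lower at an unadjusted p below 0.05). Of all rows tested 2.67% fell at the adjusted threshold, and 15.2% were lower at the unadjusted one. Stem cell markers were higher without overlap in 10 of 12. Over all rows tested 31.0% were lower and 25.6% higher without overlap. Among the stem cell markers only Gkn3 passed the test, and it went the other way, at 128 and 91.9 FPKM against 54.1 and 49.9 FPKM, where it fell by 1.06 on the log2 scale (adjusted p = 0.0496). Paneth cell markers summed to 1439 and 1047 FPKM against 852 and 2610.3 FPKM, and enterocyte markers to 491 and 619 FPKM against 389 and 621 FPKM. Immune cell markers summed to 5.68 to 14.4 FPKM, and stromal and endothelial markers to 0.55 to 0.81 FPKM, with Acta2 and Des at 0 in both Lgr5-CREPTKO mice. S phase genes had a median log2 fold change of 0.06 and G2/M genes one of -0.19, with 7 of 12 lower without overlap. The part of these differences in the members' values was not tested.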

How the data were processed

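RNA of sorted Lgr5-GFP high cells from 2 mice of each genotype was sequenced on the BGISEQ-500. The FPKM table that the authors deposited has gene symbols as rows and the 4 mice as columns. The study's methods state alignment to GRCm38.p6 transcripts with Bowtie2 and quantification with RSEM, and the submitters' processing notes also name HISAT and mm10, without versions. FPKM is relative to each library's total, so members scale with all other rows. The values are not counts, so no count model was run.

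Mice were assigned by column names, which match the sample titles. Values were taken as log2(FPKM + 0.5), rows with a mean of at least 0.5 FPKM were kept (12621 in all), and the moderated test of limma 3.58.1 (R 4.3.3, with an intensity trend) was fitted to all of them with Benjamini-Hochberg adjustment. The replicates are separate mice. In a simulation of 12535 rows with this design, 42 of 43 rows changed by -1 and 50 of 50 changed by 1 on the log2 scale were called, with 15 calls among 12349 unchanged rows. Normal noise was simulated, with a spread set by the level of the row alone, and the spread between mice may be larger. Changes smaller than 1 were not simulated, so recovery of smaller ones, such as that of Lsm5, was not tested.

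Members and lists were chosen with earlier results of these data known. Named members are those at an adjusted p below 0.05, the 5 largest changes in each direction, for each family the highest, the lowest p and the largest change, the untested member and pairs of paralogs. From each list the genes at an adjusted p below 0.05 and the largest change each way are named. Other members, Esrp1, Snrnp200, Eftud2, Magoh and the neighbours of Prpf31 were named after their values were seen. Coordinates and promoter windows are from RefSeq on GRCm38.p6, and protein and transcript lengths from GENCODE M21 principal transcripts, which cover 98.5% of rows. The values of 1 member are not reported here. Pandas 2.3.3 in Python 3.11.15 was used for summaries.

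Alternatives were a pseudocount of 0.1 or 1, no filter or a mean of at least 1 or 5 FPKM, scaling to an equal total (TPM), to the median or by the trimmed mean, leaving out short noncoding rows, no intensity trend, robust variance, a replicate block and each mouse left out. Limits on transcript length and a correction for length and GC content were chosen after seeing the data.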

Additional observations from a re-analysis of the deposited data

How the results depend on the processing

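Prpf31 kept its direction under all 18 alternatives, with log2 fold changes of -1.09 to -0.96, and so did Lsm5, with -0.78 to -0.30. Prpf31 lost its call without the filter on low values (adjusted p = 0.116), without the intensity trend (0.0657) and with any mouse left out, and Lsm5 in those and under TPM scaling (0.0515), the replicate block (0.0604) and with length and GC trends removed (0.113). The members called lower were 0 without the filter, 0 without the intensity trend, 1 under TPM scaling, 1 with length and GC trends removed and 4 with a mean of at least 5 FPKM, with robust variance or with transcripts of at least 200 bases (Lsm5, Lsm8, Prpf31 and Snrpe in each). Members without overlap were 23 lower and 19 higher under TPM scaling and 17 lower with length and GC trends removed, and 40 to 49 lower and 16 to 19 higher with 1 mouse left out, where 39.9% to 43.4% and 35% to 37.9% of all rows were, against 31.0% and 25.6% with all 4 mice. Their median was -0.029 under TPM scaling, -0.0086 with length and GC trends removed and -0.12 to -0.073 with 1 mouse left out.

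The 4 splicing genes outside the name rule that fell kept their direction under all 18 alternatives but not their call. Ppih (-0.63 to -0.36) lost it in 11, with adjusted p of 0.0542 under median centring, 0.0534 under trimmed mean scaling, 0.0588 under TPM scaling, 0.07 with the replicate block, 0.128 without the filter, 0.0969 without the trend, 0.121 with length and GC trends removed and 0.209 to 0.305 with 1 mouse left out. Zmat2 (-0.75 to -0.56) lost it in 8, Cd2bp2 (-0.97 to -0.74) in 7 and Esrp2 (-1.21 to -1.11) in 6. Each lost it without the filter, without the trend and with any mouse left out, Zmat2 and Cd2bp2 also with length and GC trends removed (0.064 and 0.0508) and Zmat2 with the replicate block (0.0539).

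Over all rows, 128 lower and 16 higher passed with an absolute log2 fold change above 1 and 337 lower and 52 higher without it. Without the filter limma called 0 and 0 by either rule (unadjusted 2250 lower and 1320 higher), and without the intensity trend 4 and 0 by either (unadjusted 1816 and 1105). TPM scaling gave 243 lower and 85 higher, 74.1% lower where the main share was 86.6%, and it moved the median of all rows from -0.01 to 0.06. A mean of at least 5 FPKM gave 9 higher with the fold limit and 116 without, leaving out short noncoding rows 109 higher, robust variance 525 lower and 126 higher, transcripts of at least 200 bases 531 and 126, and removal of length and GC trends 57 lower and 6 higher with the fold limit and 98 and 11 without. With 1 mouse left out, limma called 0 in every case, with 1 mouse of a genotype assumed to vary as the other genotype did (1177 to 1587 lower and 634 to 916 higher at an unadjusted p below 0.05). Rprd1b was -1.29 without the filter (adjusted p = 0.116) and without the trend (0.0623), and -1.36 to -1.23 with 1 mouse left out.

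Same-numbered mice of the genotypes share only a number and are different animals, and their deviations had a correlation of -0.027 over rows. With the replicate block, 8 rows were higher with the fold limit, 168 lower and 15 higher without it, and 1 member lower (Prpf31). Values near 0 changed sign. Hnrnpa1 was 0.030 under TPM scaling, -0.16 to 0.060 with 1 mouse left out and 0.088 with length and GC trends removed, which also gave Lsm4 0.0058, Snrpd2 0.013 and Cwc15 0.0006. With 1 mouse left out Lsm14b was -0.0033 (without Lgr5-CREPTWT mouse 1) to 0.35, and Srsf5 -0.096 (without Lgr5-CREPTWT mouse 2) to 0.29. The cause of these changes was not tested. FPKM alone does not give counting error, so low rows such as Lsm11 are known less well.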
